A study of Mus musculus with 19 samples.

Results

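Chromatin accessibility around 10 genes of the TGF-beta pathway in mouse neurosphere cells (NSPs) and the astrocytes formed from them was assayed with ATAC-seq, which uses a transposase to insert sequencing adapters into open DNA. A peak was assigned to a gene when its centre lay in the gene body or within 20 kb of either end (RefSeq, GRCm38.p6). This gave 82 of the 90154 peaks in the table, and no peak fell to more than 1 of the genes. Tgfb1 had 9 peaks, Tgfb2 11, Tgfb3 3, Tgfbr1 3, Tgfbr2 10, Smad2 4, Smad3 17, Smad4 5, Smad6 14 and Smad7 6. They are numbered here along the chromosome. All 82 were 500 bp long, and 12 were centred no more than 1 kb from an end of their gene (gene-end peaks), 54 lay further inside the gene and 16 in the flanks. The genes, which encode the ligands, receptors and Smad proteins, were taken as a group because a peak inside Smad3 was higher with tumor necrosis factor (TNF), so the TNF values of Smad3 are given below as a description without a test.

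TGF-beta is a secreted cytokine that is stored outside the cell in a latent form. After release it binds the type II receptor (encoded by Tgfbr2), which recruits and phosphorylates the type I receptor (Tgfbr1). The type I receptor then phosphorylates Smad2 and Smad3, and these enter the nucleus with the common partner Smad4 to act on target genes. Smad6 and Smad7 are inhibitory Smads: Smad7 blocks the TGF-beta receptors, and Smad6 acts mainly against the related BMP branch, which drives neural progenitors towards astrocytes. In the brain, TGF-beta signalling is known for its part in astrocyte maturation and in the response of glia to injury.

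The cells were neural stem cells of the ventricular zone of C57BL/6J mice at embryonic day 14, each isolation from 1 brain. NSP libraries came from the free-floating neurospheres kept with EGF. All other groups were plated on poly-L-ornithine, changed to medium with FBS and left to form astrocytes for 24 h, 72 h or 1 week, so that plating, serum and time away from the neurosphere state cannot be told apart in comparisons with NSPs. TNF, an inflammatory cytokine, was given at 50 ng/ml in 1 group at 24 h and in 1 at 72 h. The groups held 3 libraries each, and the 1 week group, which had no TNF, held 4. The study describes its data in general as coming from independent biological experiments, but nothing states which libraries of a group came from separate animals or cultures, so the p-values measure the spread between libraries, which may be technical. Reads in peaks ranged from 9640256 to 39349111 per library, with the NSP libraries deepest. The Spearman correlation between libraries of a group was 0.913 to 0.982 in NSPs. Its lowest value in any other group was 0.940, at 24 h. Gene-end peaks of astrocyte markers were present for 5 of 6 genes (not Aqp4), of neural progenitor markers for 3 of 5, of neuronal markers for 3 of 4, of microglial markers for 2 of 5 and of oligodendrocyte markers for 1 of 3. Endothelial (2 genes) and fibroblast (3 genes) markers had no gene-end peak. In bulk libraries, fewer cells with an open site and a less open site in each cell cannot be told apart.

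Accessibility is given as normalised reads, the unit of the deposited table. Changes are differences of log2(normalised reads + 1) between group means with their SE, tested with limma-trend over 88919 peaks, and a call is a Benjamini-Hochberg adjusted p under 0.05. All 82 peaks passed the filter on low values. The 20 kb limit separated no close pair of peaks. The outermost peaks inside it lay 18.4 kb from Tgfb2 and 18.5 kb from Smad2, with NSP means of 69.9 and 28.8 normalised reads. The nearest ones outside lay 22.2 kb from Smad3 and 23.2 kb from Smad6, with NSP means of 90.0 and 62.0. Names of the 72 h and 1 week libraries carry a tag that those of the NSP and 24 h libraries lack, and the comparisons of 72 h with 24 h and of 1 week with NSPs cannot be told apart from it. At 212 peaks of the table the tagged libraries had almost no reads, and 0 of these were among the 82.

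The promoters of 4 of the genes are shown first, since their start-site peaks reappear in the results. Each is the stretch of 250 bases before the RefSeq start site (GRCm38.p6), written 5′ to 3′ on the strand of the gene. Capitals mark a match to GGCGCC, a GC-rich Smad-binding motif, which was found only in the Tgfbr1 promoter among the 4.
Smad3, chr9:63757995-63758244, minus strand, within Smad3 peak 17: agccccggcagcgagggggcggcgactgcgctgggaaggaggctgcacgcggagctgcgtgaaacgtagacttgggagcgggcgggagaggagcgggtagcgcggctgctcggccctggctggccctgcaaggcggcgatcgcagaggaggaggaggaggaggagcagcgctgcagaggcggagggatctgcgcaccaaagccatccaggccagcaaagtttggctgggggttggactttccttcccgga
Smad6, chr9:64022060-64022309, minus strand, within Smad6 peak 13: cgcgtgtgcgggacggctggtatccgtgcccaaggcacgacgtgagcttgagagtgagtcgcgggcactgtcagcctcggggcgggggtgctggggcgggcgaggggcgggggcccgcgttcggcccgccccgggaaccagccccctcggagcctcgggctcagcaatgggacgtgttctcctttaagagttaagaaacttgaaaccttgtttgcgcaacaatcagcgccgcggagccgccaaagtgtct
Tgfbr2, chr9:116175364-116175613, minus strand, partly in Tgfbr2 peak 10: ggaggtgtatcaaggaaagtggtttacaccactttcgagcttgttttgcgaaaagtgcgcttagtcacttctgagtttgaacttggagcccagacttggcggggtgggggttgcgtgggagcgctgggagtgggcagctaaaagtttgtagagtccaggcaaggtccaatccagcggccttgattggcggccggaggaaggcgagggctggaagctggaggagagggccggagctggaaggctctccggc
Tgfbr1, chr4:47352972-47353221, plus strand, within Tgfbr1 peak 1: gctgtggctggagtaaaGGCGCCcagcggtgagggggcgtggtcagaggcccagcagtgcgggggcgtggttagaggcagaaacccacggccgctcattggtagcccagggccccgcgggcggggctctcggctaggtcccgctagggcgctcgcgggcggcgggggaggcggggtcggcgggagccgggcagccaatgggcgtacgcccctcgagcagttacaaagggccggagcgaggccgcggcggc
The 250 bases before each start were searched on both strands. The motifs were AP-1 (TGANTCA), the Smad motifs CAGACA and GGCGCC, and NF-kB (GGG and TTTCC with NN between them). Of 32851 mouse promoters of that length, 6.75% held TGANTCA, 17.1% CAGACA, 9.59% GGCGCC and 1.41% the NF-kB letters. The Smad3, Smad6 and Tgfbr2 windows held no match to these letters. The Tgfbr1 window held GGCGCC with its first base 233 bases before the start. CAGACA was found in the windows of Tgfb2 (204 bases before the start) and of a further Tgfbr1 start (203 bases before). RefSeq start sites were at hand for Tgfb1, Tgfb2, Tgfbr1, Tgfbr2, Smad3 and Smad6 only, and for Smad2, Smad4, Smad7 and Tgfb3 positions are given relative to the gene ends.

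Which sites opened or closed as NSPs differentiated was asked by comparing successive times without TNF. At 24 h, 25 of the 82 peaks were higher than in NSPs and 22 were lower, against 24.2% higher and 23% lower of all peaks tested. The step from 24 h to 72 h brought 13 rises and 8 falls (12% and 14.3% of all peaks). That from 72 h to 1 week brought 23 rises and 10 falls (22.5% and 16.2%). Set against NSPs, 34 peaks had risen and 19 had fallen by 1 week (33.7% and 33.6%). These last counts are 41.5% and 23.2% of the 82, and the genes differed widely in how their calls were split. In all, 69 peaks were called in at least 1 of these 4 comparisons and 13 in none. The matching share of all peaks was not counted, and the last comparison alone called 33.7% of them higher and 33.6% lower. Median log2 changes of the 82 peaks were -0.08, 0.14, 0.12 and 0.07 in the same order, beside -0.07, -0.01, 0.02 and 0.01 for all peaks.

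These splits depended on the scaling. With each library scaled to its total reads in peaks, the median log2 change of all peaks at 24 h was 0.11 in place of -0.07, and that between 72 h and 1 week was -0.31 in place of 0.02. The 82 peaks then split into 29 rises and 13 falls at 24 h, 16 and 6 from 24 h to 72 h, 8 and 22 from 72 h to 1 week and 32 and 23 between NSPs and 1 week. All 88919 peaks split into 26112 and 12367, 13867 and 10504, 7965 and 30033, and 27683 and 31934 in the same order. With a loess offset per library the 82 peaks gave 23 and 19, 15 and 7, 9 and 7, and 33 and 22. All peaks then gave 21816 and 17305, 11844 and 12182, 11619 and 10210, and 29582 and 28817. Changes between 72 h and 1 week are therefore described with their value under these scalings where the call was lost.

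**Figure D1:**
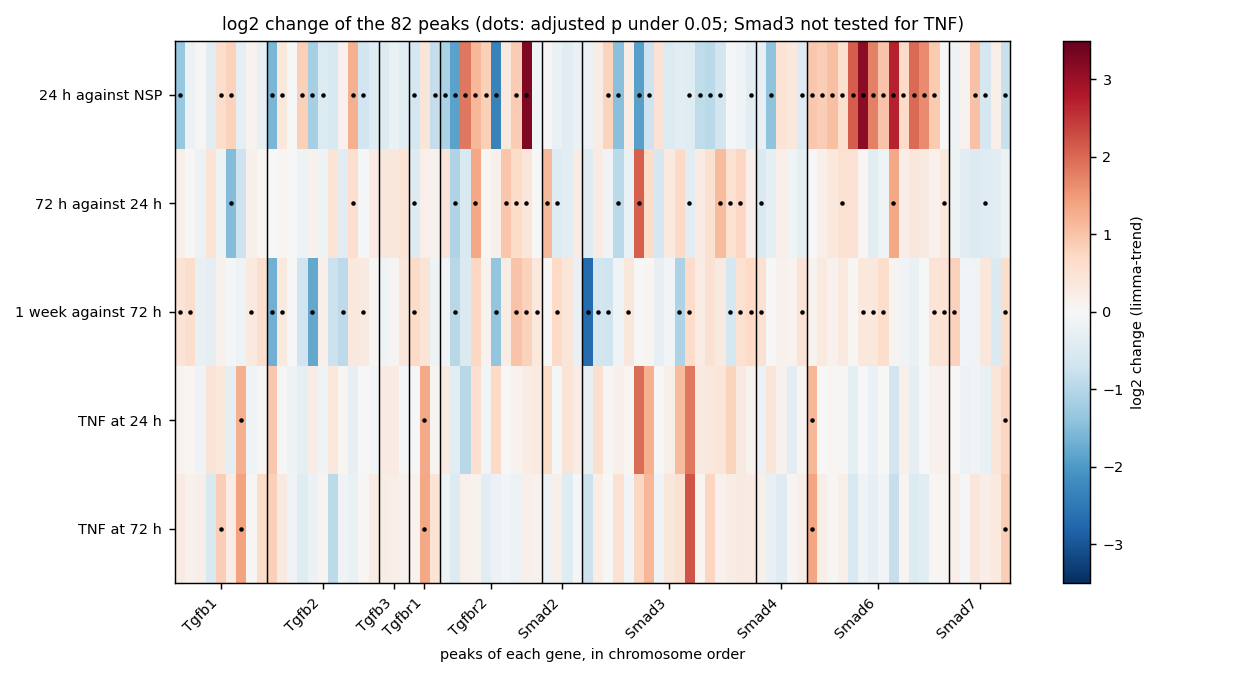
Log2 change (colour, from limma-trend) of the 82 peaks (columns, grouped by gene, in chromosome order) in 5 comparisons (rows); dots mark an adjusted p under 0.05, and the TNF rows of Smad3 carry no test. The Smad6 block is red at 24 h against NSP, where 13 of its 14 peaks were called higher, whereas the blocks of Tgfb2, Tgfbr2 and Smad3 hold both colours.

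Among the ligand genes, Tgfb1 encodes the most widely expressed TGF-beta. Its start-site peak (peak 3, chr7:25686894-25687394), which also lies within 1 kb of an end of B9d2, was low and showed no change past the threshold in any comparison, with group means between 46.6 and 69.3 normalised reads. The largest change near Tgfb1 at 24 h was at peak 1 (chr7:25676376-25676876), 10.4 kb upstream and inside Tmem91. It held 608, 588 and 596 normalised reads in NSPs, 229, 307 and 196 at 24 h, 272, 316 and 249.8 at 72 h and 398, 341, 381 and 436 at 1 week. The NSP libraries stood above all others here, and the fall at 24 h was -1.31 ± 0.14 on the log2 scale (adjusted p = 6.67e-09). Peak 6 (chr7:25709915-25710415), downstream of Tgfb1 and at an end of Ccdc97, fell from 133 ± 9.77 (SD, n = 3) at 24 h to 48.1 ± 18.5 at 72 h (-1.53 ± 0.28, adjusted p = 0.000198). Peak 2 (chr7:25680569-25681069), at an end of B9d2, rose from 579 ± 44.2 at 72 h to 885 ± 82.4 at 1 week (0.61 ± 0.11, adjusted p = 8.04e-05), but with loess offsets this change was 0.16 and was not called. Of the 9 peaks, 6 lay within 1 kb of an end of B9d2, Ccdc97 or Hnrnpul1, so most of what was measured around Tgfb1 may equally be assigned to its neighbours.

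Tgfb2, which encodes a TGF-beta prominent in the developing nervous system, had sites moving in opposite directions. Peak 9 (chr1:186685586-186686086), in the gene body 20.2 kb from the start, held 259.9, 112 and 132 normalised reads in NSPs. It rose to 372, 370.3 and 369.5 at 24 h, 611, 494 and 588 at 72 h and 708, 762, 759 and 702 at 1 week. The libraries of each time lay above those of the time before, with no overlap. The rise was 1.24 ± 0.18, adjusted p = 1.46e-06 at 24 h and 0.60 ± 0.18, adjusted p = 0.0134 from 24 h to 72 h, the latter lost on leaving out 72 h replicate 1. Peak 1 (chr1:186604124-186604624), 18.4 kb beyond the far end of the gene, went the other way, from 69.9 ± 22.7 in NSPs to 22.3 ± 6.59 at 24 h (-1.59 ± 0.37, adjusted p = 0.000779). At 1 week it held only 4.41, 8.57, 4.40 and 7.51, which rests on 5, 11, 2 and 7 reads, and the fall from 72 h was -1.68 ± 0.35 (adjusted p = 0.000356). Between NSPs and 1 week, 2 of the 11 peaks were higher and 5 lower, against 33.7% and 33.6% of all peaks. Peak 10 (chr1:186705162-186705662), the nearest to the Tgfb2 start and described here after its values were seen, fell from 469.9 ± 18.4 to 298 ± 29.2 at 24 h (-0.66 ± 0.13, adjusted p = 7.64e-05).

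Tgfb3 had 3 peaks, none called in any step between successive times by limma-trend on the deposited values. At 1 week 1 of them was higher than in NSPs, against 33.7% of all peaks. From 24 h to 72 h, 2 were called higher with total-read scaling and 1 with loess offsets or edgeR. Over all 88919 peaks these settings called 13867, 11844 and 11458 higher, and the deposited values 12%. The sum of the 3 peaks was called higher too (0.41 ± 0.13, adjusted p = 0.014). The higher of its gene-end peaks (peak 2, chr12:86079299-86079799) held 352 ± 43.9 normalised reads in NSPs, 299 ± 58.8 at 24 h, 386 ± 19.8 at 72 h and 418 ± 69.6 at 1 week, and the difference between 24 h and 72 h (0.39 ± 0.15, adjusted p = 0.0579) missed the threshold. Peak 3 lies at an end of Ift43.

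The receptor genes behaved differently from each other. Tgfbr2 had the largest rise and some of the largest falls of all 82 peaks. Peak 9 (chr9:116152673-116153173), 22.4 kb inside the gene from the start, held 66.6, 72.5 and 65.8 normalised reads in NSPs and 776, 561 and 686 at 24 h. It held 930.3, 824 and 930.5 at 72 h and 1644, 1522, 1582 and 1519 at 1 week. Every 24 h library was thus far above every NSP library, and each later time lay above the one before. The rise was 3.27 ± 0.11 at 24 h (adjusted p = 4.89e-19) and 0.81 ± 0.10 from 72 h to 1 week (adjusted p = 1.16e-06), where it kept its call under both other scalings. The 1 week mean was 22.9 times the NSP mean.

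Peak 2 of Tgfbr2 (chr9:116099556-116100056), 75.6 kb from the start, fell at every step. Its values were 824, 648 and 756 in NSPs, 197, 215 and 195 at 24 h, 90.1, 94.5 and 105 at 72 h and 48.5, 35.8, 52.8 and 60.0 at 1 week. No library of one time overlapped those of the next. The steps were -1.87 ± 0.19, -1.06 ± 0.19 and -0.97 ± 0.17, with adjusted p of 2.18e-09, 0.000115 and 7.82e-05, and the NSP mean was 15.1 times the 1 week mean. Among the other sites inside the gene, 3 that were picked after their values were seen also changed between NSPs and 1 week. Peak 6 (chr9:116138583-116139083) went from 176 ± 36.9 to 15.4 ± 7.21, peak 8 (chr9:116150946-116151446) from 39.9 ± 9.31 to 229 ± 19 and peak 4 (chr9:116128877-116129377) from 10.7 ± 5.93 to 102 ± 13.7. In contrast to these, the start-site peak (peak 10, chr9:116175041-116175541), which covers part of the promoter shown above, stayed between group means of 348 and 447. It was not called at 24 h (-0.11 ± 0.13, adjusted p = 0.509), and its difference between 72 h and 1 week was 0.36 ± 0.12, adjusted p = 0.018, a call lost under both other scalings.

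Tgfbr1, the type I receptor gene, had only 3 peaks, and nearly all of its reads fell in the start-site peak (peak 1, chr4:47352921-47353421). This was the strongest of the 82 peaks, with 2845, 1952 and 2008 normalised reads in NSPs and 1601, 1543 and 1279.7 at 24 h. It held 1072, 1007 and 1148 at 72 h and 1742, 1485, 1842 and 1731 at 1 week. NSP libraries were highest and 72 h libraries lowest, with no overlap between successive times. The change was -0.61 ± 0.12, adjusted p = 0.000179 at 24 h and -0.45 ± 0.12, adjusted p = 0.00758 from 24 h to 72 h, followed by 0.66 ± 0.12, adjusted p = 6.13e-05 to 1 week. With loess offsets the last of these was 0.01 and was not called.

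Of the receptor-regulated Smads, Smad2 had 4 peaks, of which peaks 1 and 2 were called in the steps after 24 h. Its gene-end peak (peak 2, chr18:76241040-76241540) held 1250.2 ± 75.3 normalised reads in NSPs, 1067 ± 203 at 24 h, 767 ± 60.3 at 72 h and 1244 ± 131 at 1 week. Its fall from 24 h to 72 h (-0.46 ± 0.12, adjusted p = 0.00575) was lost without 24 h replicate 2. The rise to 1 week (0.70 ± 0.11, adjusted p = 2.69e-05) was 0.13 with loess offsets and was then not called. Peak 1 (chr18:76222317-76222817), described after its values were seen, went from 28.8 ± 3.41 in NSPs and 33 ± 16.2 at 24 h to 71.2 ± 33 at 72 h (1.13 ± 0.36, adjusted p = 0.0204 for the later step), though the 24 h and 72 h libraries overlapped. It held 71 ± 25.8 at 1 week, 2.46 times the NSP mean.

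Smad3 had more peaks than any other of the genes, and at 24 h 8 of the 17 were lower and 1 higher than in NSPs, against 23% lower and 24.2% higher of all peaks. The median log2 change was -0.39, and it was negative under the other scalings and tools as well. With total-read scaling, though, only 4 of the 17 peaks were lower and 3 higher. Over all 88919 peaks that scaling called 12367 lower and 26112 higher. Peak 4 (chr9:63664997-63665497), 92.7 kb from the start, held 322, 243 and 236 in NSPs and 102, 82.6 and 99.8 at 24 h. It went on falling, to 55.3, 46.7 and 45.9 at 72 h, and held 45, 49.1, 41.8 and 39.7 at 1 week. The NSP libraries stood well above the rest (-1.47 ± 0.20, adjusted p = 5.28e-07). Peak 6 (chr9:63677573-63678073) held 61.3, 69.7 and 64.5 in NSPs, 26.2, 16.2 and 11.1 at 24 h, 100.4, 67 and 61.2 at 72 h and 72.3, 82.6, 94.6 and 56.8 at 1 week. It was thus low at 24 h alone among the untreated groups, and rose by 2.08 ± 0.30 to 72 h (adjusted p = 1.17e-05). The start-site peak (peak 17, chr9:63757932-63758432), over the Smad3 promoter shown above, held 1173 ± 193 in NSPs, 900.4 ± 64 at 24 h, 1015 ± 109.8 at 72 h and 1642 ± 130.5 at 1 week. Its rise from 72 h to 1 week (0.70 ± 0.10, adjusted p = 9.66e-06) fell to 0.11 with loess offsets, without a call. The untreated 24 h and 72 h libraries of peak 6 are also the controls of the TNF values given below.

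Smad4 encodes the partner shared by TGF-beta and BMP signalling. Its gene-end peak (peak 5, chr18:73703663-73704163) held 794 ± 254 in NSPs, 567 ± 38.5 at 24 h, 459 ± 58 at 72 h and 650.0 ± 32.6 at 1 week. NSP replicate 1 alone (1082, 693 and 605 in the 3 NSP libraries) lay far above the others, and the NSP and 24 h values overlapped. Peak 2 (chr18:73665305-73665805), in the gene body, fell from 82.4, 154 and 188 in NSPs to 49, 39.8 and 61.6 at 24 h (-1.42 ± 0.38, adjusted p = 0.00323). Peak 1 (chr18:73623025-73623525), 11.5 kb outside the gene, was lower at 72 h than at 24 h (-0.52 ± 0.12, adjusted p = 0.0026) and higher again at 1 week (0.54 ± 0.12, adjusted p = 0.000574). The later change was 0.20 and not called with total-read scaling.

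The inhibitory Smad genes differed from each other. Around Smad6, 13 of 14 peaks were higher at 24 h than in NSPs and 0 lower, against 24.2% higher of all peaks, and at 1 week all 14 were higher than in NSPs, against 33.7%. The median log2 change was 1.03 at 24 h and 1.55 at 1 week. The count at 24 h was also 13 with total-read scaling, edgeR and DESeq2 and 12 with loess offsets, and the count at 1 week was 14 under each of these. The exception at 24 h was peak 14 (chr9:64022774-64023274), about 1 kb upstream of the start, with 418 ± 78.2 in NSPs and 419.6 ± 37.6 at 24 h. It held 766 ± 38.1 at 1 week. Peaks of 1 gene share their neighbourhood and libraries and are not independent of each other.

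The largest rise around Smad6 at 24 h was at peak 6 (chr9:63965590-63966090), 56.2 kb inside the gene. It held 58.4, 60.3 and 51.2 normalised reads in NSPs, 560.2, 475 and 471 at 24 h, 587, 464 and 520.0 at 72 h and 661, 702, 746 and 599 at 1 week. NSP libraries lay far below all others, and the 24 h and 72 h libraries overlapped. The rise at 24 h was 3.12 ± 0.12 (adjusted p = 7.3e-18), and the mean was 8.86 times that of NSPs. Peak 8 (chr9:63968574-63969074), the most accessible site of the gene, rose from 572 ± 38.6 to 1153 ± 78.8 at 24 h (1.01 ± 0.11, adjusted p = 1.73e-08). It rose again to 1595 ± 156 at 1 week, a step of 0.61 ± 0.11, adjusted p = 5.45e-05 that was 0.04 with loess offsets. The start-site peak (peak 13, chr9:64021814-64022314), over the Smad6 promoter shown above, held 474, 393 and 319 in NSPs, 815, 692 and 712 at 24 h, 749, 787 and 909 at 72 h and 1059.8, 1225, 1025 and 1195 at 1 week. All later libraries lay above all NSP libraries (0.92 ± 0.13, adjusted p = 9.12e-07). Peak 9 (chr9:63992783-63993283), 29.0 kb inside the gene, was close to closed in NSPs, with 8, 11 and 3 reads in the 3 libraries. Its normalised values were 4.67, 5.18 and 1.99 in NSPs, 33, 19.2 and 40.6 at 24 h, 61.8, 89.7 and 81.6 at 72 h and 74.1, 72.5, 90.2 and 95.4 at 1 week. The step from 24 h to 72 h (1.35 ± 0.38, adjusted p = 0.00972) was lost without 24 h replicate 2.

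**Figure D2:**
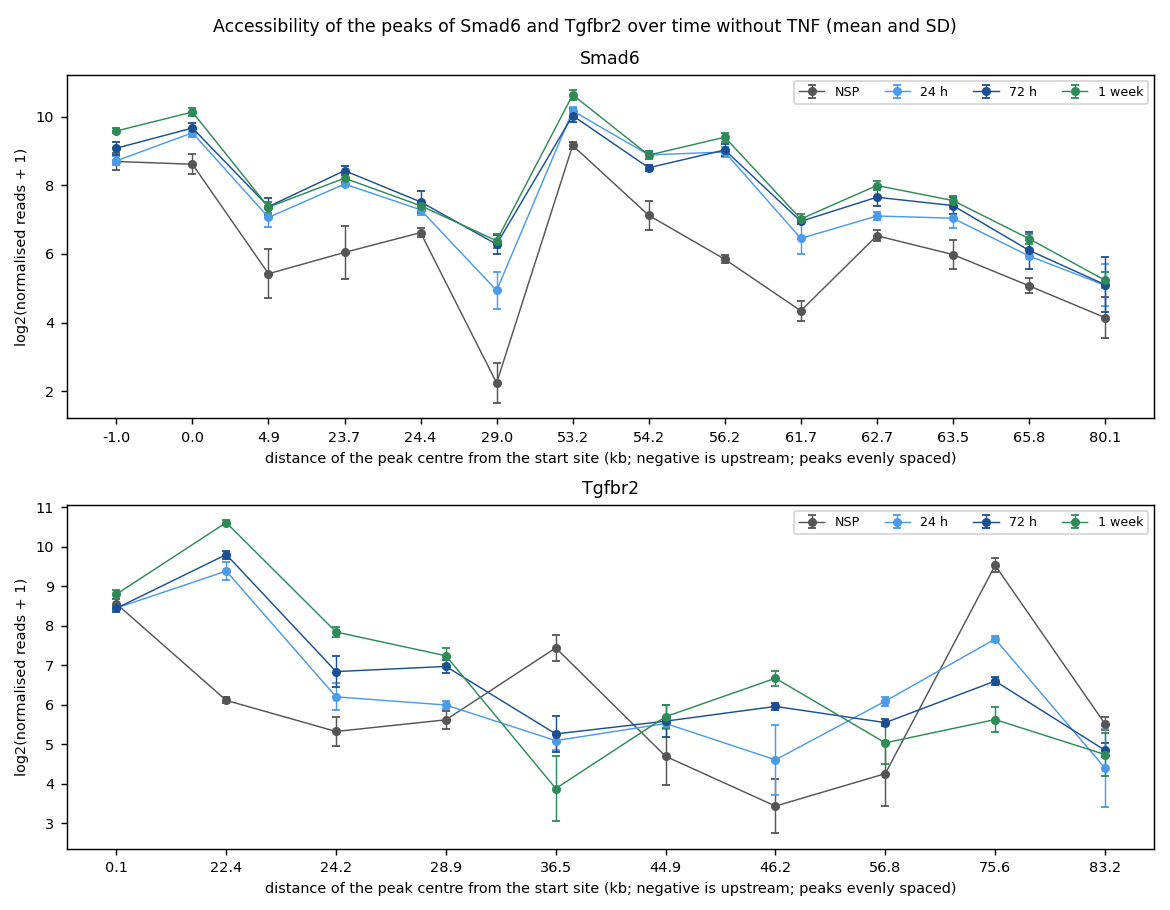
Mean log2(normalised reads + 1) with SD of each peak of Smad6 (upper panel) and Tgfbr2 (lower panel) in NSPs and at 24 h, 72 h and 1 week without TNF, ordered by distance of the peak centre from the start site in kb (peaks evenly spaced). The NSP line runs below the others at nearly all Smad6 peaks, whereas at Tgfbr2 it runs far below them at 22.4 kb and above them at 36.5 and 75.6 kb, and meets them at the start site.

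Smad7, the inhibitor of the TGF-beta receptors, had 1 of 6 peaks higher and 2 lower at 24 h than in NSPs, near the shares of all peaks (24.2% and 23%). Its gene-end peak (peak 1, chr18:75366428-75366928) held 853 ± 42.9 in NSPs, 749 ± 71.6 at 24 h and 665 ± 85.6 at 72 h, and rose to 1168 ± 67.7 at 1 week (0.82 ± 0.10, adjusted p = 9.56e-07), which kept its call under both other scalings. Peak 3 (chr18:75375482-75375982), in the gene body, rose from 49.5 ± 16 to 98.3 ± 5.97 at 24 h (1.02 ± 0.23, adjusted p = 0.000635). Peak 4 (chr18:75378459-75378959) fell from 199 ± 7.82 to 146 ± 21.3 between 24 h and 72 h, a change just past the threshold (-0.46 ± 0.17, adjusted p = 0.0477) that was lost in 9 of the alternatives tried.

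The gene-end peaks were also counted as a class. Of the 12, 9 rose and 0 fell from 72 h to 1 week, against 54% higher and 6.12% lower of all gene-end peaks. With total-read scaling 4 rose and with loess offsets 2, against 20.9% and 9.67% of all gene-end peaks, and 0 fell under either. At 24 h against NSPs, 1 rose and 3 fell (6.27% and 39.3% of all gene-end peaks). From 24 h to 72 h, 2 rose and 2 fell (7.7% and 22.4%), and between NSPs and 1 week 5 rose and 1 fell (26.5% and 27.6%). With TNF, 0 of those outside Smad3 were called at either time, against 1.97% higher and 0.854% lower at 24 h and 3.29% higher and 1.45% lower at 72 h of all gene-end peaks. By limma-trend, 1 of these 10 was higher at an unadjusted p under 0.05 at each time, and edgeR and DESeq2 called 0.

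What TNF did to accessibility at these genes was asked at 24 h and at 72 h against untreated cells of the same time. In the 9 genes other than Smad3, TNF raised 4 of 65 peaks at 24 h and lowered 0, against 7.06% higher and 3.53% lower of all peaks. At 72 h it raised 5 of 65 and lowered 0, against 6.24% and 5.55%. By limma-trend, 2 peaks at 24 h and 5 at 72 h were lower at an unadjusted p under 0.05, and edgeR and DESeq2 also called 0 lower at either time. With total-read scaling, 1 was called lower at 72 h, beside 6601 of the 88919 peaks as a whole. Their median log2 change was 0.06 at 24 h and 0.09 at 72 h, beside -0.03 and 0.03 for all peaks. The 4 peaks higher at 24 h, each in a different gene, were higher at 72 h too. They lay away from the start sites, in Tgfbr1 and beside Tgfb1, Smad7 and Smad6.

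Tgfbr1 peak 2 (chr4:47407114-47407614), inside the gene 7.56 kb from its far end, held 28.5, 45.7 and 33.3 normalised reads at 24 h and 85.8, 80.8 and 104 with TNF. The corresponding values at 72 h were 46.3, 37.1 and 37 and 105, 108 and 99.6. All TNF libraries lay above all untreated ones, also above NSPs (22.2, 29.7 and 25.9) and 1 week (51.1, 42.1, 68.2 and 60.0). The mean with TNF reached 2.52 times the untreated mean at 24 h and 2.59 times at 72 h, with log2 changes of 1.33 ± 0.25, adjusted p = 0.000575 and 1.36 ± 0.25, adjusted p = 0.000439. The strong start-site peak of the same gene did not pass the threshold, with 1475 ± 171 and 1442 ± 29.1 at 24 h (-0.03 ± 0.12, adjusted p = 0.942).

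Tgfb1 peak 7 (chr7:25711679-25712179), 6.85 kb downstream of Tgfb1 and inside Ccdc97 near an end of it, held 86.5, 63.4 and 72.7 at 24 h and 153, 176 and 204 with TNF. Its values at 72 h were 32.2, 40.7 and 66.3 without and 113, 139 and 110.4 with TNF. The groups did not overlap at either time, and the changes were 1.25 ± 0.29, adjusted p = 0.00497 and 1.42 ± 0.29, adjusted p = 0.00148. NSPs (49.7, 113 and 141) reached part of the range of the TNF libraries. Another Tgfb1 site, peak 5 (chr7:25689126-25689626), 2.4 kb inside the gene, was called at 72 h, with 81.1, 69.4 and 62.5 and 142, 112 and 134 (0.86 ± 0.20, adjusted p = 0.00409). At 24 h it held 76.3, 82.6 and 82.5 and 106, 103 and 104 (0.37 ± 0.20, adjusted p = 0.277).

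Smad7 peak 6 (chr18:75405588-75406088), 9.90 kb outside the gene, held 94.5, 133 and 98.5 at 24 h and 188, 196 and 155 with TNF. At 72 h it held 84.9, 99.3 and 93 and 158, 201 and 150.0. The TNF libraries were higher without overlap (0.73 ± 0.18, adjusted p = 0.00675, and 0.86 ± 0.18, adjusted p = 0.00149) and lay in a range like that of NSPs (171, 180.0 and 203). Smad6 peak 1 (chr9:63941691-63942191), 11.1 kb beyond the far end of Smad6, held 22.8, 29.5 and 53 at 24 h and 69, 85.1 and 71.7 with TNF. The 72 h libraries held 60.5, 19.1 and 31.9 and 98.3, 101 and 68.4. The groups did not overlap, but the untreated values were spread widely. The call at 24 h (1.16 ± 0.36, adjusted p = 0.0356) was lost on leaving out 24 h replicate 1 or 2 or any of the 24 h TNF libraries, and that at 72 h (1.37 ± 0.36, adjusted p = 0.0116) on leaving out 72 h replicate 2 or 72 h TNF replicate 1 or 2. The other 13 Smad6 peaks were not called with TNF at either time. Few of all peaks were called either, with 7.06% higher and 3.53% lower at 24 h and 6.24% and 5.55% at 72 h. Smad6 peak 6, for example, held 502 ± 50.5 at 24 h and 497 ± 25.5 with TNF (-0.01 ± 0.12, adjusted p = 0.977).

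The Smad3 peak that led to the choice of these genes was peak 11 (chr9:63706281-63706781), deep in the gene body and 51.5 kb from the start. It held 261, 249 and 232 normalised reads at 24 h and 836, 906 and 918 with TNF. At 72 h it held 196, 194 and 172 and 813, 856 and 937. NSPs held 262, 393 and 356 and the 1 week libraries 340.3, 283, 290.5 and 263. The 6 TNF libraries lay between 813 and 937, above every other library. The mean with TNF was 3.59 times that without at 24 h and 4.64 times at 72 h, with log2 changes of 1.84 ± 0.13 and 2.21 ± 0.13. By log2 change it ranked 517th at 24 h and 200th at 72 h among the 88919 peaks. These values chose the gene and carry no test.

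Around peak 11 the sites within 10 kb differed less. Peak 12, the next towards the start, had log2 changes with TNF of 0.30 at 24 h and 0.06 at 72 h, and peak 9 of 0.20 and 0.39. Peak 10 (chr9:63698567-63699067) had 1.11 and 0.53. Further towards the far end, peak 7 (chr9:63678101-63678601) held 21.6, 35.4 and 18.5 at 24 h and 62.8, 42 and 78.9 with TNF, and 51.5, 34.7 and 31.9 and 86.7, 81.3 and 96 at 72 h, without overlap. Its neighbour peak 6, described for its low value at 24 h, held 56.6, 46.3 and 120.5 at 24 h with TNF and 131, 121 and 116 at 72 h with TNF, which are log2 changes of 1.96 ± 0.30 and 0.71 ± 0.30, also without overlap. Of the 17 Smad3 peaks, 16 had a positive log2 change with TNF at 24 h and 13 at 72 h, and the start-site peak had 0.13 ± 0.11 and 0.28 ± 0.11. The share of all peaks with a positive change was not counted, and their median log2 change was -0.03 at 24 h and 0.03 at 72 h.

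**Figure D3:**
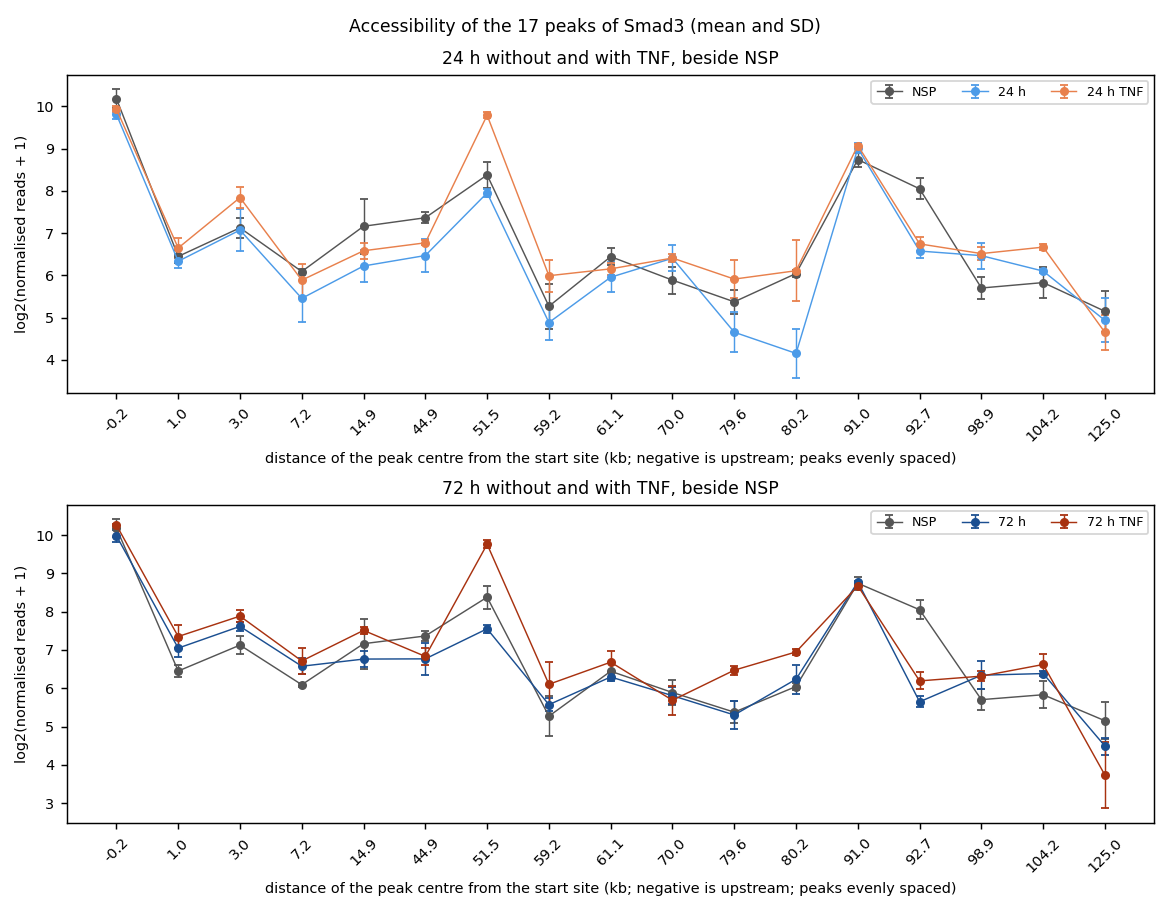
Mean log2(normalised reads + 1) with SD of the 17 Smad3 peaks in NSPs, untreated cells and TNF-treated cells at 24 h (upper panel) and 72 h (lower panel), ordered by distance of the peak centre from the start site in kb (peaks evenly spaced). At 51.5 kb (peak 11) the means with TNF were 3.59 and 4.64 times those without, and peak 6, low in untreated cells at 24 h, had 4.18 and 1.61 times.

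**Figure D4:**
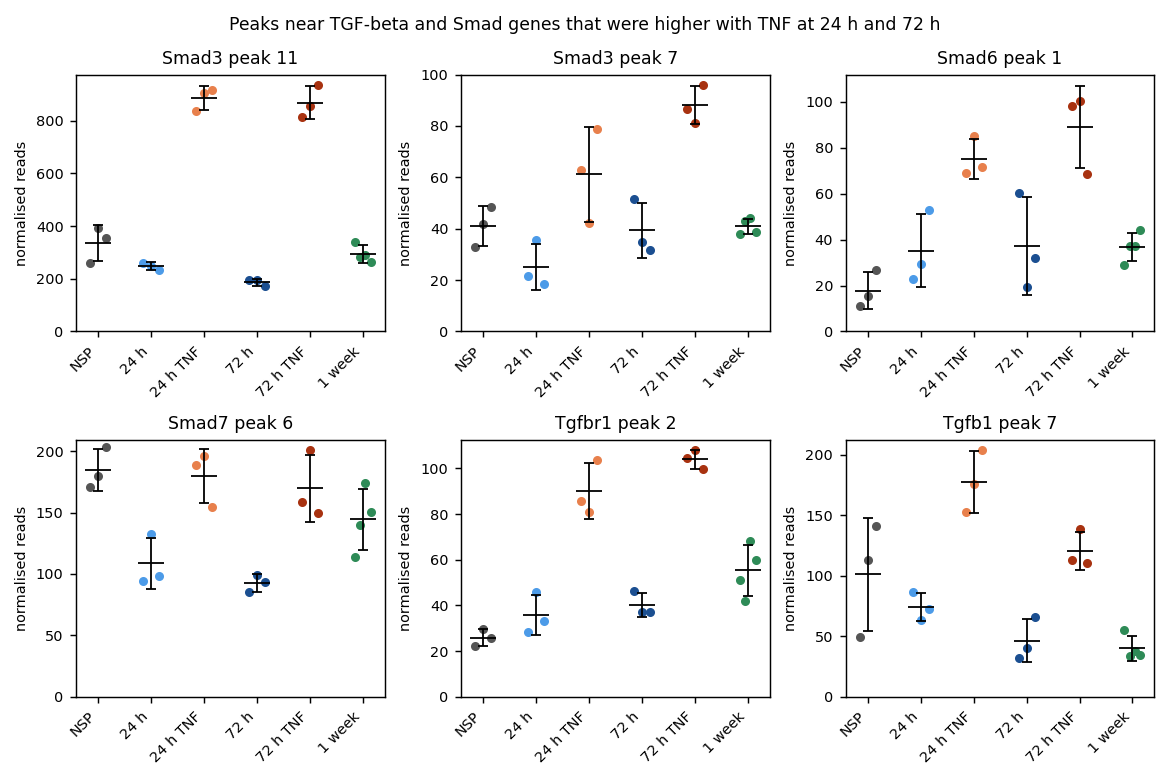
Normalised reads per library (points), group mean (bar) and SD (whiskers) of 6 peaks, the 4 outside Smad3 that were called higher with TNF at both times and Smad3 peaks 7 and 11, which the same rule picked and which are shown as a description. In each panel the TNF groups lie above the untreated groups of the same time, and Smad3 peak 11 has the highest values, between 813 and 937 with TNF.

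Whether the TNF response differed between 72 h and 24 h was tested with the interaction term. Of the 65 peaks outside Smad3, 0 were called by limma-trend, edgeR or DESeq2, and 7 had an unadjusted p under 0.05. Over all peaks the calls by limma-trend were 0% higher and 0.00112% lower, and 6675 of 88919 had an unadjusted p under 0.05. The difference for Tgfbr1 peak 2 was 0.03 ± 0.35 on the log2 scale and for Tgfb1 peak 7 0.17 ± 0.42, so that differences of that order in either direction lay within the error. For the summed gene windows described next, 0 of the 9 outside Smad3 were called by limma-trend, against 0% higher and 0.011% lower of all windows, and 1 had an unadjusted p under 0.05.

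The accessibility of each gene as a whole was taken as the sum over its peaks, fitted for 18119 protein-coding genes. Smad6 held 2311, 2001 and 1774 summed normalised reads in NSPs, 4438, 4234 and 4299 at 24 h, 4759.8, 4365 and 4893 at 72 h and 5993, 5983, 6221 and 5971 at 1 week. All differentiating libraries stood above all NSP libraries. Its change at 24 h was 1.10 ± 0.07, adjusted p = 4.36e-11, and it was the only one of the 10 genes called higher at that step, while 7 were called lower, against 11% higher and 46.4% lower of all gene windows. With total-read scaling Smad6 and Tgfbr2 were higher and 2 genes were lower. Tgfbr2 held 1592, 1469 and 1605 in NSPs, 1634, 1488 and 1554 at 24 h, 1827, 1749 and 1835 at 72 h and 2799, 2556, 2746 and 2594 at 1 week. Its NSP and 24 h sums overlapped although peak 9 rose by 3.27 ± 0.11, and by 1 week the sum was above NSPs by 0.78 ± 0.06 (adjusted p = 1.02e-10). Tgfbr1 went the other way and was lower at 1 week than in NSPs (-0.38 ± 0.10, adjusted p = 0.00181), as was Smad4 (-0.27 ± 0.09, adjusted p = 0.0106).

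From 24 h to 72 h, 2 gene sums were higher and 4 lower (13% and 25.9% of all windows). From 72 h to 1 week, 9 of the 10 were higher and 0 lower (67.3% and 5.46%). Under total-read scaling 4 were higher and 1, Tgfb2, lower. Between NSPs and 1 week, Smad6, Tgfbr2 and Smad3 were higher and 2 genes lower (38.8% and 26%). The Smad3 change (0.16 ± 0.06, adjusted p = 0.0208) lost its call with total-read scaling (0.09, adjusted p = 0.0989). With TNF at 24 h, 0 of the 9 genes other than Smad3 were called by limma-trend (4.34% higher and 2.05% lower of all windows), and 1 was higher at an unadjusted p under 0.05. At 72 h, Tgfb1 (0.26 ± 0.07, adjusted p = 0.0216) and Smad7 (0.26 ± 0.07, adjusted p = 0.0165) were higher (9.19% and 3.15%), and neither was called with total-read scaling or when only gene-end peaks were summed. For Smad3, whose TNF values are a description, the sum was 2696, 2677 and 2413 at 24 h and 3687, 3510.1 and 3844 with TNF, and 2813, 2712 and 2915 and 3987, 3948 and 4085 at 72 h. The groups did not overlap.

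**Figure D5:**
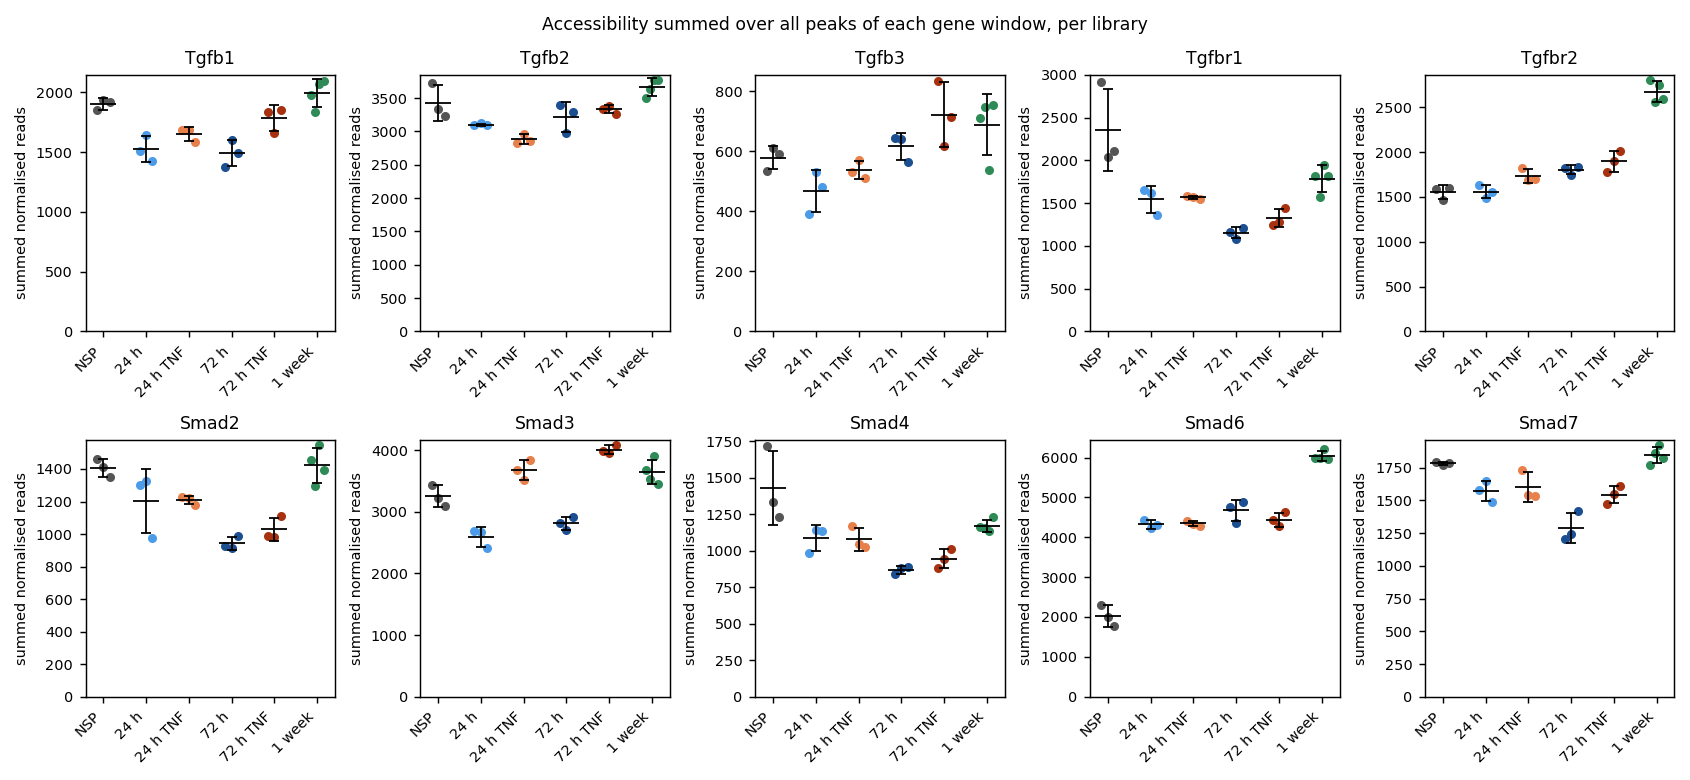
Summed normalised reads over all peaks of each of the 10 genes, per library (points), with group mean (bar) and SD (whiskers). Smad6 steps up from NSPs to all other groups, Tgfbr2 is highest at 1 week, Tgfbr1 is highest in NSPs, and Smad3 is higher in the TNF groups than in the untreated groups of the same time.

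Beyond the 10 genes, 32 further genes of the pathway, listed by role, had 243 peaks, of which TNF raised 22 and lowered 4 at 24 h, and raised 16 and lowered 8 at 72 h (against 7.06% and 3.53%, and 6.24% and 5.55%, of all peaks). Without TNF, 45 rose and 77 fell from NSPs to 24 h (24.2% and 23% of all peaks), and 73 had risen and 88 fallen by 1 week (33.7% and 33.6%). Among 8 genes listed under TGF-beta latency and activation, 7 of 67 peaks were higher with TNF at each time and 0 lower. Ltbp2 held 3 of the 7 at each time. It was listed as a member of the family of latent TGF-beta binding proteins, and a part in latency was not tested. The smallest p in this list was at a peak of Ltbp2 (chr12:84801617-84802117), which went from 44.9 ± 13.1 to 357 ± 14.3 at 24 h (3.01 ± 0.33, adjusted p = 3.31e-07). At 72 h it went from 75.1 ± 18.9 to 431 ± 23.2 (2.53 ± 0.33, adjusted p = 4.94e-06).

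Among 5 co-receptors and related receptors, TNF raised 5 of 42 peaks at 24 h, and raised 3 and lowered 2 at 72 h. All peaks gave 7.06% and 3.53% at 24 h and 6.24% and 5.55% at 72 h, near the 72 h counts. At 24 h the smallest p was at a peak shared by the windows of Acvrl1 and Acvr1b (chr15:101163761-101164261), which went from 163 ± 30.6 to 319 ± 38.6 (0.97 ± 0.15, adjusted p = 4.11e-05). At 72 h it was at a peak of Eng (chr2:32685771-32686271), the gene of the co-receptor endoglin, which went from 35.3 ± 9.67 to 109.7 ± 22.6 (1.63 ± 0.29, adjusted p = 0.000257). For 2 activin subunit genes, 0 of 10 peaks were called at 24 h, and at 72 h a peak of Inhba (chr13:16032304-16032804) was higher (0.73 ± 0.22, adjusted p = 0.0258).

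For 12 regulators of Smad proteins, TNF raised 7 and lowered 4 of 95 peaks at 24 h and raised 4 and lowered 6 at 72 h, near the shares of all peaks (7.06% and 3.53%, and 6.24% and 5.55%). The smallest p at both times was at a peak of Smurf1 (chr5:144898418-144898918), which encodes a ubiquitin ligase of Smads and receptors. It went from 286 ± 43.5 to 706 ± 60.1 at 24 h (1.31 ± 0.17, adjusted p = 5.43e-06) and from 274 ± 41.5 to 562 ± 14.2 at 72 h (1.04 ± 0.17, adjusted p = 0.000116).

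Peaks whose level over the 19 libraries was most like that of Smad3 peak 11 were looked up as a description. Pearson correlations of log2 values were used, and the points share groups and scaling. The 5 most similar in the table were a peak of Spata13 (chr14:60529948-60530448, r = 0.971), a peak near no protein-coding gene (chr12:86612450-86612950, 0.952), one of the Ccl2 and Ccl7 windows (chr11:82032876-82033376, 0.952), one of the Nfkbiz and Nxpe3 windows (chr16:55838725-55839225, 0.951) and one of the Pak4 and Acp7 windows (chr7:28593476-28593976, 0.950). Among the other 81 peaks, the 5 most similar were Tgfb1 peak 7 (0.795), Tgfbr1 peak 2 (0.782), Smad3 peak 7 (0.769), Tgfb1 peak 5 (0.689) and Smad7 peak 6 (0.671). Summed over gene windows, those closest to Smad3 were Hspg2 (0.964), Spata13 (0.958), Sh3pxd2b (0.953), Gga2 (0.934) and Csrp1 (0.928).

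Markers of some cell types moved with time or TNF alongside these values. Summed over gene-end peaks, progenitor markers held 2281 to 2536 normalised reads in NSPs, 1423 to 1708 at 24 h, 1422 to 1713 at 72 h and 2082 to 2252 at 1 week. Gene-end peaks of all genes also shifted on this scaling. Their median log2 change was -0.28 at 24 h against NSPs and 0.39 from 72 h to 1 week. At the later step 54% were called higher, but 20.9% with total-read scaling and 9.67% with loess offsets. The marker sums are given on the deposited scaling only. Astrocyte markers held 1129 to 1193 in NSPs and 1293 to 1437 at 24 h, 1408 to 1483 at 72 h and 1007 to 1096 at 1 week, so that every 1 week library lay below every NSP library. With TNF they held 1127 to 1397 at 24 h, a range that overlapped that of untreated cells, and 1083 to 1124 at 72 h, below it. Neuronal markers held 947 to 1148 in NSPs and 966 to 1312 at 1 week, and the ranges of all groups overlapped. Oligodendrocyte markers, with 1 of 3 genes measured, held 82.4 to 97.0 in NSPs and 85.8 to 118 at 1 week, also with overlap between all groups. Microglial markers, with 2 of 5 genes measured, fell from between 157 and 240 in NSPs to between 56.9 and 85.8 at 1 week. The part of these differences in the results above was not tested.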

How the data were processed

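ATAC-seq libraries (19 in 6 groups, assigned by sample titles) were analysed. Per the submitters' processing notes and the study's methods, the authors used Trim Galore, FastQC, Bowtie2, SAMtools, MACS2, HOMER and DiffBind with build mm10. Versions, duplicate handling and transposase shifting were not given in the sources used here. The deposited table holds a signal (normalised read count) per peak. Within 0.001 read, 100% of the values were whole multiples of 1 read's worth, which gave the reads.

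As planned for normalised values, log2(value + 1) of every library entered 1 limma-trend fit (R 4.3.3, limma 3.58.1) that had a term for each group and nothing else. Changes of low peaks are understated on this scale. The filterByExpr filter of edgeR 4.0.16 (minimum count 10) passed 88919 peaks but not the remaining 1235. Tests were two-sided, with Benjamini-Hochberg adjustment across all peaks that passed. There were 6 comparisons and the interaction. The code was tested on simulated data. Alternatives covered the scaling (total reads, loess), the pseudocount (8), the filter, the tool (edgeR, DESeq2 1.42.0), the samples fitted, a replicate block, the window and leaving out each library.

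Named peaks followed a rule. Per gene, they were the highest gene-end peak and, per comparison between successive times or with TNF, the call with the smallest p. Added were peaks called in 1 direction at both TNF times, the Smad3 peak rising most at 72 h, its neighbours within 10 kb, and the most correlated peaks and genes. For other pathway genes it was the TNF call with the smallest p per role. One role, target genes, is counted in the total of these genes and is otherwise not reported here. Members and lists were chosen with earlier results of these data known. Promoters and gene positions are from RefSeq (GRCm38.p6). No peak sequences are given.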

Additional observations from a re-analysis of the deposited data

Results flagged for a closer look

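The summed normalised reads of Smad6 at 1 week held a library that stood apart from its group. Replicate 3 reached 6221.06, while the other 3 libraries lay between 5971.49 and 5992.88. The gap was 0.914 of the range of the group, above Dixon's critical value for groups of 4. In all, 44 such groups were examined, and chance flags about 1 in 20. Replicate 3 was also the shallowest library, with 9640256 reads in peaks, and the part of depth in this value was not tested.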

How the results depend on the processing

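Alternatives that moved a count of calls by over 1.5 times were as follows, with the main count in brackets. Total-read scaling gave 13 lower (22) at 24 h against NSPs, 8 higher (23) and 22 lower (10) at 1 week against 72 h, and 1 lower (0) with TNF at 72 h. Loess offsets gave 9 higher (23) at 1 week against 72 h. For gene-end peaks alone, a count added after seeing the data, total-read scaling gave 4 and loess offsets 2 higher (9) at 1 week against 72 h. Counting only peaks inside the genes, a window of 0 kb, gave 5 lower (8) at 72 h against 24 h, 12 higher (23) at 1 week against 72 h, 11 lower (19) at 1 week against NSPs, and 1 (4) and 2 (5) higher with TNF at 24 h and 72 h. A window of 50 kb gave 53 higher (34) at 1 week against NSPs and 9 (4) and 8 (5) higher with TNF. These windows hold fewer or more peaks by construction. Fitting only the groups compared gave 1 and 3 lower with TNF (0 and 0). For summed windows, total-read scaling gave 2 higher (1) and 2 lower (7) at 24 h, 4 higher (2) at 72 h, 4 higher (9) and 1 lower (0) at 1 week against 72 h, and 0 (2) with TNF at 72 h. Gene-end peaks only gave 3 lower (7) at 24 h, 1 higher (2) and 2 lower (4) at 72 h, 1 lower (2) at 1 week against NSPs and 0 (2) with TNF at 72 h. Counts over all peaks under total-read scaling and loess offsets are given with the time comparisons above. The cause of the changes with scaling was not tested.

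Leaving out 1 library at a time gave 20 to 27 higher and 17 to 22 lower at 24 h against NSPs, and 9 to 14 and 5 to 8 at 72 h against 24 h, with 5 lower without 24 h replicate 2. It gave 18 to 23 and 7 to 10 at 1 week against 72 h, 31 to 35 and 17 to 20 at 1 week against NSPs, 3 to 4 and 0 with TNF at 24 h, 4 to 5 and 0 with TNF at 72 h, and 0 for the interaction. The small log2 change of Smad3 peak 12 with TNF at 72 h (0.06) changed sign with total-read scaling (-0.0132), without 72 h replicate 3 (-0.1597), without 72 h TNF replicate 3 (-0.0485) and with the block by library name (-0.0013), and leaving out 1 library gave -0.1597 to 0.2608.

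The deviations of same-numbered libraries were weakly correlated (-0.042 to 0.106), and the numbers were not taken as pairs. With so few libraries in a group this check cannot exclude pairing. With the replicate block, 25 peaks were higher and 21 lower at 24 h against NSPs, 12 and 7 at 72 h against 24 h, 23 and 10 at 1 week against 72 h, 33 and 19 at 1 week against NSPs, 4 and 0 with TNF at 24 h, 5 and 0 with TNF at 72 h, and 0 for the interaction. Not every library correlated best with its own number. A block by the number in the library names, added after seeing the data, gave 5 and 0 with TNF at 72 h. Of the values of single peaks, 250 kept direction and call on leaving out a library and 348 under the other alternatives, 16 and 10 lost the call, 5 and 1 moved by over 1 SD, and 2 and 2 changed sign.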
